A study of Mus musculus with 15 samples.

Results

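Long noncoding RNAs (lncRNAs) are transcripts with no known protein product. The 219 described here were selected on abundance alone, as the genes with the biotype lncRNA whose mean level over all 15 kidney libraries was 5 CPM or more (counts of the gene per 1e6 counts of the library). They are 219 of 4882 lncRNAs and of 26823 named genes in both deposited tables, all 219 had counts in every library, and all passed the low-count filter. RNA came from whole kidney of 4-month-old mice, with 5 libraries per group that the labels give as separate samples, so p-values measure the spread between these samples. WT mice received PBS. Hyp mice, labelled Phex_KO, also received PBS. In the remaining group, cFGF23-Hyp, Phex_KO mice were injected intravenously with AAV-cFGF23 when 4 weeks old, at a dose of 1e12 vg, and were killed 3 months later. The labels give neither sex nor strain, nor the promoter that drives cFGF23 in the vector.

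Phex is an endopeptidase whose loss raises FGF23, a bone hormone that makes the kidney waste phosphate. cFGF23 is its carboxy-terminal fragment, which can compete with the whole hormone at the receptor complex. LncRNAs act in several ways: Neat1 scaffolds nuclear paraspeckles, Malat1 sits in nuclear speckles, Meg3 is expressed from the maternal copy of an imprinted locus, and others carry small nucleolar RNAs or microRNAs in their introns. Many start beside a protein-coding gene and are transcribed away from it, so the neighbours are given with the outlying transcripts. For most of the 219 no function is known; 85 carry a predicted gene symbol (Gm), 64 a Riken clone symbol and 24 only an Ensembl ID.

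The libraries held 13083190 to 21829906 counts, of which the 219 lncRNAs made up 0.542% to 0.675%. Kidney markers were high in every library, with a summed level of 12 proximal tubule genes of 32466 to 57479 CPM. The library titled WT_5 carries the genotype label Phex_KO. On a list of type I interferon genes (mean log2 deviation over 22 genes), WT_5 stood at 1.20 against -0.90 to -0.58 in the other WT mice, and cFGF23-Hyp_5 at -0.83 against 0.37 to 2.16 in the other treated mice. cFGF23-Hyp_3 held the highest or lowest value of 15 for 50.7% of the 219 lncRNAs and for 49.4% of all genes tested, and cFGF23-Hyp_5 for 20.1%. In the other 13 libraries this share was 3.2% to 16% of the lncRNAs. Groups follow the titles, and results that rest on these libraries are also given without them. The libraries left out were picked with their values known, so results without them are no independent support.

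**Figure D1:**
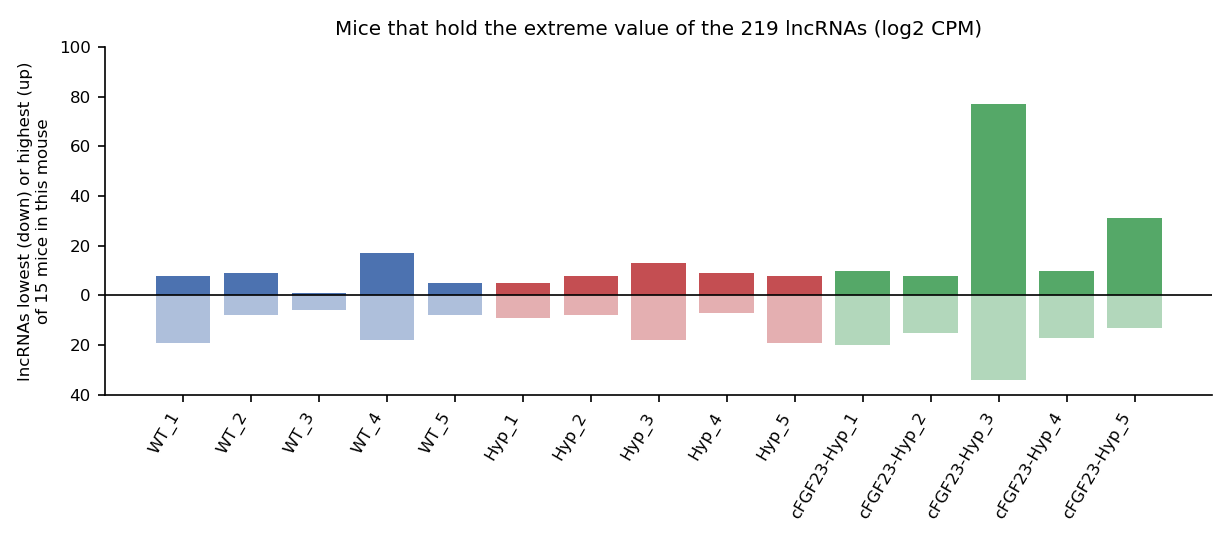
Number of the 219 lncRNAs whose highest (upward bars, full colour) or lowest (downward bars, pale) log2 CPM among the 15 mice lies in each mouse, coloured by group. cFGF23-Hyp_3 held the highest value of 77 lncRNAs and the lowest of 34, and cFGF23-Hyp_5 the highest of 31.

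Abundance was concentrated in a few transcripts. Neat1 alone held 28.9% of the counts of the 219 lncRNAs, Neat1 and Malat1 together 38.6%, and the 10 most abundant 54.9%. All CPM below are scaled by TMM factors unless stated. Neat1 (ENSMUSG00000092274) ran from 1471 to 2152 CPM in WT, 1607 to 1944 in Hyp and 1463 to 2042 in cFGF23-Hyp, and the 3 groups overlapped. Its log2 fold change in Hyp against WT was 0.03 ± 0.12 (SE; adjusted p = 0.929, edgeR). Malat1, its neighbour on chromosome 19, was less even, at 414 to 590 CPM in WT, 402 to 872 in Hyp and 310 to 1227 in cFGF23-Hyp. The most even of the abundant lncRNAs was Oip5os1, which ran from 92.3 to 99.8 CPM in WT, 96.5 to 99.7 in Hyp and 83.7 to 105 in cFGF23-Hyp. Norad, which binds Pumilio proteins, ran from 110 to 126 CPM in WT and from 107 to 114 in Hyp.

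Per kilobase of deposited gene length the order differed. BC024386 came first at 124 CPM per kb, followed by Malat1 at 83.8 and Neat1 at 83.1, which did not differ beyond the spread between mice. D630029K05Rik stood at 59.2 CPM per kb and ENSMUSG00000121141 at 55.3. Gm12121, Gm10076 and ENSMUSG00000120732 were close together at 43.3, 41.9 and 41.4 CPM per kb. The median of the 219 was 3.78 CPM per kb, against 7.06 for the 10641 tested protein-coding genes with the same CPM minimum. BC024386 was at 197 to 263 CPM in WT, 182 to 223 in Hyp and 167 to 248 in cFGF23-Hyp, which overlap. At the other end, Hnf1aos1, Gm10734 and Gm10762 passed the minimum with 5.02, 5.04 and 5.04 unscaled CPM, while C030037D09Rik, Gm17767 and 4930516B21Rik missed it with 4.99, 4.99 and 4.95. For 10 of the 219, the mean over the libraries outside 1 group fell below 5 CPM. Of these, Meg3 was far from the limit, at 15.1 unscaled CPM in Hyp and 1.37 in the rest.

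**Figure D2:**
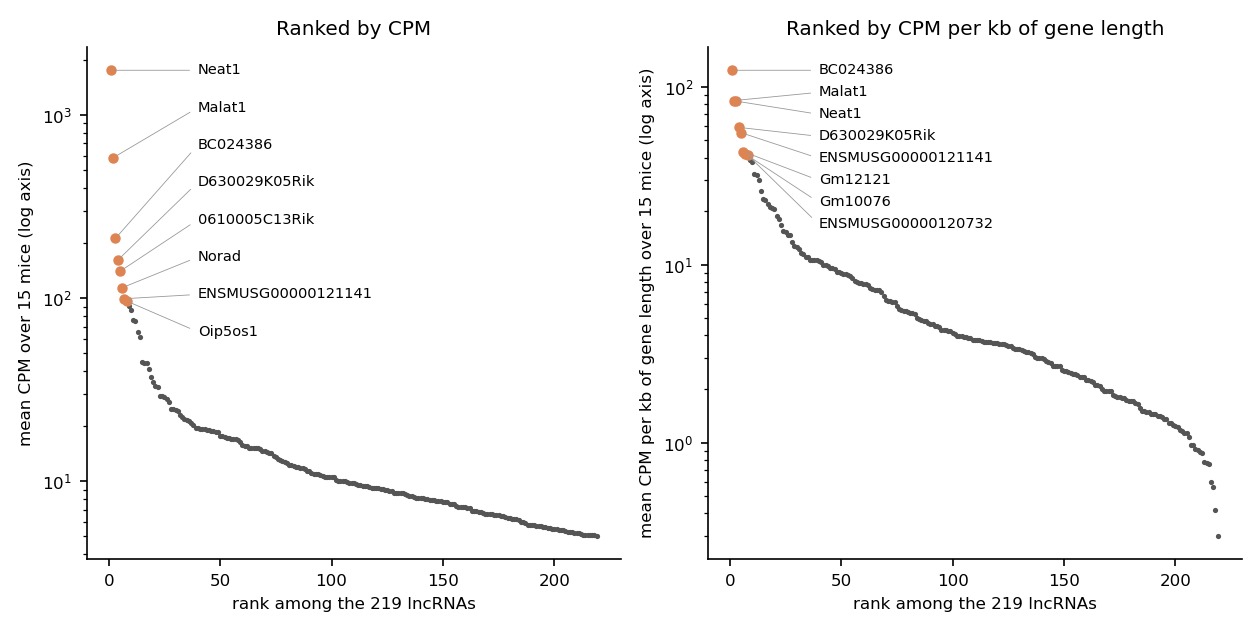
Mean CPM (left) and mean CPM per kb of gene length (right) of each of the 219 lncRNAs over 15 mice, on log axes, against rank. The 8 highest of each order are orange and named: Neat1 leads by CPM with a mean of 1758, and BC024386 leads per kb with 124.

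The 219 lncRNAs were placed by their nearest protein-coding gene. For 74 of them (33.8%) the 5′ end was within 2 kb of that of a protein-coding gene on the other strand, against 30.7% of the other 4663 lncRNAs. Another 45 (20.5%, against 26.9%) overlapped a protein-coding gene on the other strand and 18 (8.22%, against 5.92%) on the same strand. A further 68 (31.1%, against 27.3%) had such a 5′ end within 100 kb without overlap, and 14 (6.39%, against 9.16%) had none. The kit's labels do not say whether strand was kept, so reads of overlapping genes cannot be told apart. Of the 219, 31 formed 14 groups with gaps of at most 50 kb, among them Malat1 and Neat1, Pantr1 and Pantr2, and Gm53, Hoxb5os and Hoxb3os in the Hoxb cluster. RefSeq promoter windows (GRCm38.p6, 250 bases before to 50 after a start, without chromosome 18) could be matched by symbol for 118 of the 219. Their median number of CG dinucleotides was 13, against 6 for 1656 other lncRNAs and 21 for 8537 protein-coding genes with a mean CPM of 5 or more.

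By title, Hyp against WT compares mice without and with working Phex, although WT_5 carries the label Phex_KO. In this comparison 2 lncRNAs changed and both fell, Gm4208 3.94-fold and 9630013D21Rik 1.53-fold (edgeR quasi-likelihood test, adjusted p under 0.05 over 15789 genes). This is 0.913% of the 219 beside 0.342% of all genes tested, and by direction 0 rose and 2 fell, where 0.177% of all genes rose and 0.165% fell. The median log2 fold change was -0.02 over the 219 and 0.00 over all genes. At an unadjusted p under 0.05 there were 26 lncRNAs (11.9%), against 13.4% of all genes. In 10 of the 219 (4.57%) every Hyp mouse was below every WT mouse, beside 2.84% of all genes, and in 4 (1.83%) every Hyp mouse was above, beside 2.91%. Of protein-coding genes with the same CPM minimum, 3.65% lay below and 3.25% above. With DESeq2, 7 of the 219 passed (3.2%, beside 2.27% of all genes) and with limma-voom 3 (1.37%, beside 0.481%).

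Gm4208 (ENSMUSG00000100426, chromosome 1, 62860510 to 62871529, minus strand, as the deposited tables give it) has no known function. It stood at 16.5, 13.3, 16.3, 15.5 and 5.53 CPM in WT mice 1 to 5. Hyp mice had 2.59, 3.62, 3.86, 3.03 and 3.85 CPM. Treated mice had 3.62, 4.6, 7.75, 3.8 and 14.4 CPM. All Hyp mice were thus below all WT mice, WT_5 lay between the groups, and cFGF23-Hyp_5 lay within the range of the first 4 WT mice. The log2 fold change in Hyp against WT was -1.98 ± 0.36 (SE, n = 5 and 5; adjusted p = 0.033, edgeR). Without WT_5 and cFGF23-Hyp_5 it was -2.18 ± 0.20 (adjusted p = 7e-05), and the adjusted p over all 25 alternatives ran from 8.4e-07 to 0.109. WT_5 was the lowest WT mouse for Gm4208 and cFGF23-Hyp_5 the highest treated mouse. Leaving them out lowers the spread by that choice, so the smaller p is no added support. No protein-coding gene starts within 100 kb. The nearest gene body is that of Nrp2, a neuropilin that binds semaphorins and VEGF, which ends 2656 bases away on the other strand and was looked up after the values were seen. Nrp2 ran from 9.96 to 18.5 CPM in WT and 16.8 to 24.9 in Hyp, with a log2 fold change of 0.45 ± 0.22 (adjusted p = 0.383, edgeR).

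Over the 15 libraries, the genes whose log2 CPM was most like that of Gm4208 were Ncam2, Snx31, Dnase1, Ftcd and Synpr, with Pearson's r of 0.95, 0.94, 0.94, 0.94 and 0.93. These points share the group difference and the same libraries, so r is a description. Dnase1, a secreted nuclease, was at 1258 to 2192 CPM in WT and 464 to 619 in Hyp (log2 fold change -1.61 ± 0.24, adjusted p = 0.0097, edgeR). Ftcd, an enzyme of histidine breakdown, was at 37.1 to 62.5 CPM in WT and 15.7 to 22.1 in Hyp.

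9630013D21Rik (ENSMUSG00000059027, chromosome 4, 109508726 to 109515050, minus strand) is a Riken transcript of no known function. WT mice 1 to 5 had 14, 12.9, 12.7, 11.6 and 12.5 CPM. Hyp mice had 8.11, 8.49, 9.32, 7.95 and 7.59 CPM, and treated mice 12.2, 10.2, 14.8, 10.6 and 14.2. The Hyp mice lay below every mouse of both other groups, and WT_5 lay among the other WT mice. The log2 fold change was -0.62 ± 0.12 in Hyp against WT (adjusted p = 0.034, edgeR). In cFGF23-Hyp against Hyp it was 0.58 ± 0.12 (adjusted p = 0.186, edgeR), a comparison that shares the Hyp libraries, and DESeq2 gave an adjusted p of 0.0041 there (range over the alternatives 0.0041 to 0.450). The nearest gene, 3023 bases away on the same strand, is Cdkn2c, an inhibitor of the cell cycle kinases Cdk4 and Cdk6. Cdkn2c ran from 8.99 to 13.4 CPM in WT and 6.93 to 12.7 in Hyp, and its log2 fold change was -0.38 ± 0.20 (adjusted p = 0.426, edgeR). Removing a single Hyp mouse, whichever it was, or a single WT mouse other than WT_5 ended the calls of both lncRNAs, with adjusted p of 0.062 to 0.109 for Gm4208 and 0.055 to 0.119 for 9630013D21Rik. Under those removals the log2 fold changes stayed between -2.03 and -1.90 and between -0.66 and -0.58.

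The promoter windows of the 2 called lncRNAs are shown because their base composition differs, beside that of 3110045C21Rik, an uncalled lncRNA with a low level in Hyp that shares its window with a coding gene. All are from RefSeq on GRCm38.p6, and their positions must not be set against the deposited coordinates. In the first 2, capitals run from the annotated transcript start onwards. In the last, capitals mark the stretch from the start of 3110045C21Rik onwards (right end) and the first bases of Hsd17b7, which is transcribed leftwards (left end).
Gm4208, chr1:62838076-62838375, minus strand: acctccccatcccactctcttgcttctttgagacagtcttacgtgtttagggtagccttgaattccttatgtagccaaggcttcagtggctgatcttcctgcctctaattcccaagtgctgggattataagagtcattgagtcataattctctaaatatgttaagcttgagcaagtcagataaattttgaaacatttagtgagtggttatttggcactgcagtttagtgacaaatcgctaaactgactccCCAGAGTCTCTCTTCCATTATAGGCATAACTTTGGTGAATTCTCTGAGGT
9630013D21Rik, chr4:109657539-109657838, minus strand: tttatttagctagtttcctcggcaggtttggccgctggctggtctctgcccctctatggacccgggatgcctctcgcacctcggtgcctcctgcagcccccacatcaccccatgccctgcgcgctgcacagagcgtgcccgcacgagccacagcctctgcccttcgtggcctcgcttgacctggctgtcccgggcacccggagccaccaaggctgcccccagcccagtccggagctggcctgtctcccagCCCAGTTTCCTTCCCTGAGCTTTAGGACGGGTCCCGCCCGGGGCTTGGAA
3110045C21Rik, chr1:169969159-169969458, plus strand: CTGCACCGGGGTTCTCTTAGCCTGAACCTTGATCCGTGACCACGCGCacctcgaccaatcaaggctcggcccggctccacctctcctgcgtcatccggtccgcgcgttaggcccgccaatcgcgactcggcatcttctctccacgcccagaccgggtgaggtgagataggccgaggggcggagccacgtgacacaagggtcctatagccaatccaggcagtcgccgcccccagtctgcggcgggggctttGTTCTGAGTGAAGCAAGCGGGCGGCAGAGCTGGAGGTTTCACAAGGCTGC
The Gm4208 window holds 2 CG dinucleotides, that of 9630013D21Rik 18 and the shared one 27, against a median of 7 over all 27025 windows. None of the 3 contains TATAAA on either strand, a run found in 14.2% of all windows. The shared window reads CCAAT 3 times on the plus strand and 0 times on the minus strand, and 37.9% of all windows hold CCAAT on either strand. The starts of 3110045C21Rik and Hsd17b7, an enzyme of oestrogen and cholesterol synthesis, lie 204 bases apart there.

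**Figure D3:**
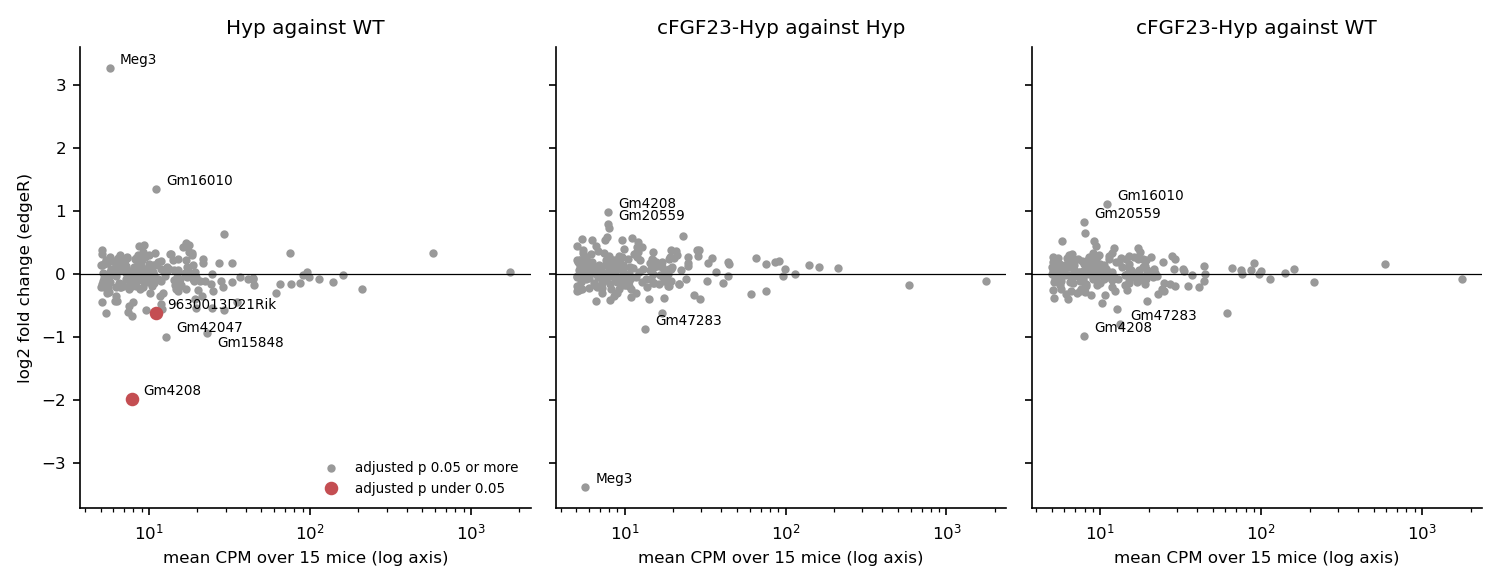
Log2 fold change of each of the 219 lncRNAs (edgeR) against its mean CPM over 15 mice (log axis) in the 3 comparisons. Red points passed an adjusted p of 0.05, which only Gm4208 and 9630013D21Rik did, in Hyp against WT, and Meg3 lies far out through 1 Hyp mouse.

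Below the 2 called lncRNAs, several had log2 fold changes of more than 0.5 in size in Hyp against WT without passing the test. Gm15848 (chromosome 1, 130737703 to 130751821, minus strand) was at 24.9 to 37.2 CPM in WT and 13.4 to 19.5 in Hyp, so the groups did not overlap. Its log2 fold change was -0.93 ± 0.22 (adjusted p = 0.085, edgeR; 0.0027 to 0.217 over the alternatives). It overlaps Fcamr, a receptor for IgA and IgM, on the other strand. Fcamr ran from 25.4 to 33.4 CPM in WT and 16.9 to 21.7 in Hyp, again without overlap (log2 fold change -0.60 ± 0.23, adjusted p = 0.271, edgeR), and whose reads were counted for which gene cannot be told apart. Pigr, the transporter of IgA and IgM across epithelia that starts on the other side of Gm15848, had a log2 fold change of 0.29 ± 0.20.

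3110045C21Rik was at 6.07 to 13.6 CPM in WT and 4.19 to 6.54 in Hyp, which overlap through WT_5, the lowest WT mouse. Its log2 fold change was -0.67 ± 0.23 (adjusted p = 0.208, edgeR), and that of Hsd17b7, which shares the promoter window above, was 0.02 ± 0.14. Ddr2, a collagen receptor whose span overlaps the lncRNA, had 0.34 ± 0.22. Gm42047 ranged from 7.4 to 33.4 CPM in WT and from 2.82 to 12.6 in Hyp, with overlap and a log2 fold change of -0.99 ± 0.43 (adjusted p = 0.326, edgeR). Its neighbours Klhdc4 and Slc7a5, an amino acid transporter, had -0.14 ± 0.10 and 0.45 ± 0.26.

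Of the lncRNAs with higher levels in Hyp, Gm16010 (chromosome 9, 96898019 to 96904096, plus strand) came closest to the threshold. WT mice had 5.89, 3.84, 5.8, 4.32 and 8.99 CPM, with WT_5 the highest. Hyp mice had 14, 12.4, 10.2, 16.4 and 20.7 CPM, all above WT, and treated mice 12.3, 8.42, 12.2, 21.6 and 7.96. Its log2 fold change was 1.35 ± 0.28 (adjusted p = 0.051, edgeR; 0.0005 to 0.159 over the alternatives). It overlaps Spsb4, an adaptor of a ubiquitin ligase, on the other strand, which had 24.3 to 39.3 CPM in WT and 27.3 to 38.1 in Hyp and a log2 fold change of 0.03 ± 0.17.

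Gm53, upstream of Hoxb9 in the Hoxb cluster of developmental regulators, had 21.5, 19.4, 22.8, 19.9 and 34.4 CPM in WT and 32 to 41.9 in Hyp. WT_5 was within the Hyp range and the other 4 WT mice were below it. The log2 fold change was 0.63 ± 0.16 (adjusted p = 0.103, edgeR), and without WT_5 it was 0.80 ± 0.14 (adjusted p = 0.015; 0.00014 to 0.278 over the alternatives). Hoxb9, which starts 20359 bases on, had 17.1 to 26.7 CPM in WT and 24.1 to 38.5 in Hyp (0.49 ± 0.16, adjusted p = 0.185, edgeR). The deviations of Gm53 and Hoxb9 from their group means had r = 0.70 over 15 libraries. The other lncRNAs of the cluster, Hoxb5os and Hoxb3os, had log2 fold changes of 0.31 ± 0.17 and 0.00 ± 0.16. Gm10076 had 11.2 to 18 CPM in WT and 9.34 to 30.8 in Hyp (0.50 ± 0.28), and no protein-coding gene starts within 100 kb of it.

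**Figure D4:**
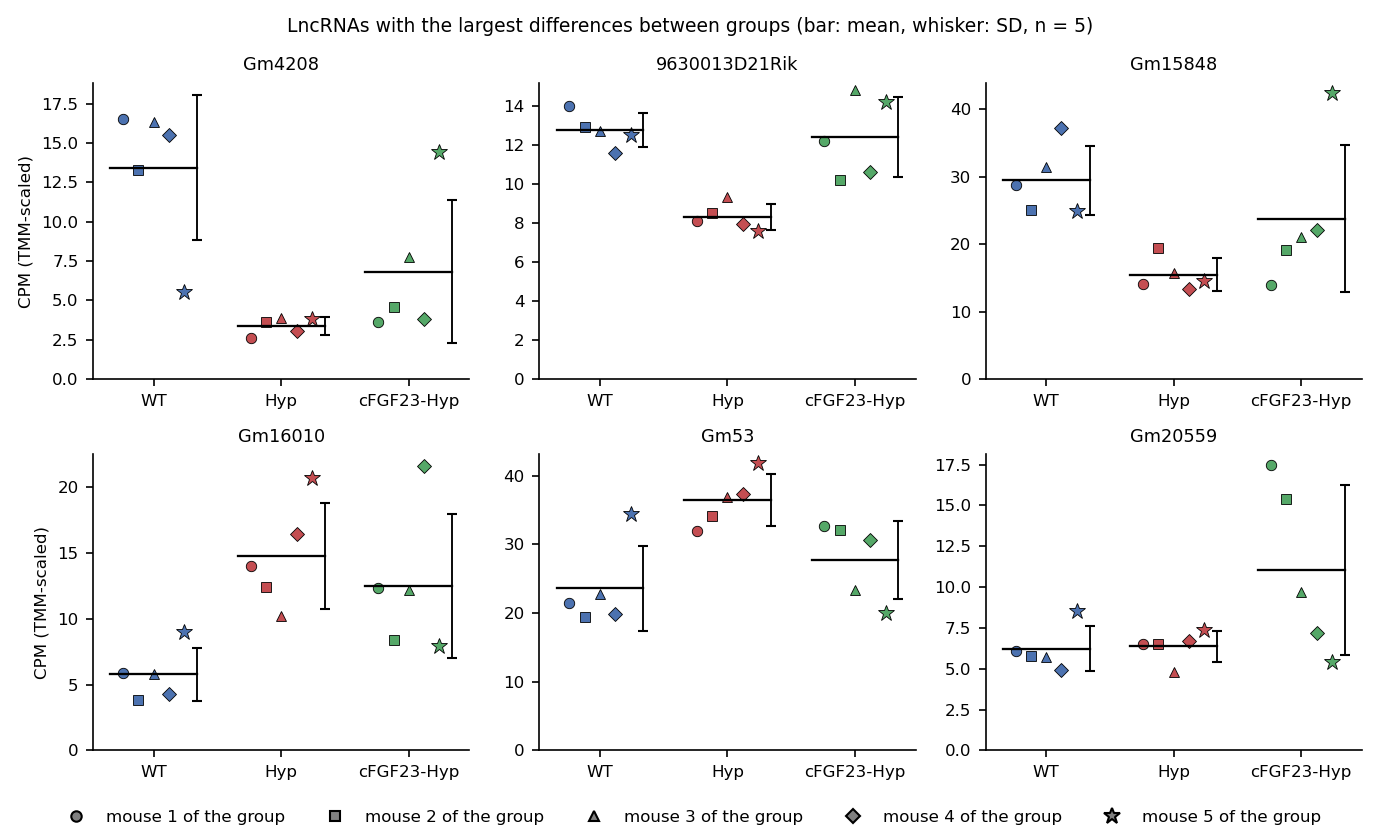
CPM of 6 lncRNAs in each mouse by group, 1 point per mouse with the symbol giving its number; bars are means and whiskers SD (n = 5). For Gm4208 and 9630013D21Rik every Hyp mouse lies below every WT mouse, and the stars show WT_5 and cFGF23-Hyp_5 apart from their groups for Gm4208.

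Some marker genes of kidney and blood cell types moved with the same groups, in most lists through a few genes. The 12 proximal tubule genes summed to 41242 to 55604 CPM in WT and 32466 to 41121 in Hyp. Of the 12, 3 were lower in every Hyp mouse (Slc34a1, Cyp2e1 and Slc7a13) and 9 overlapped, among them Kap, which held the most counts, Lrp2 and Cubn. Of 10 B and plasma cell genes, 4 that encode parts of secreted antibodies (Igha, Igkc, Ighm and Jchain) were higher in every Hyp mouse, and the list summed to 66.3 to 170 CPM in WT and 210 to 531 in Hyp. The 6 podocyte genes summed to 230 to 278 and 290 to 394 CPM, with 2 of 6 genes apart, and the 8 macrophage genes to 101 to 116 and 126 to 134, with 1 of 8 apart. The 9 hepatocyte genes summed to 107 to 519 and 1055 to 1914 CPM, but Ttr alone set them apart (44.3 to 463 in WT, 917 to 1853 in Hyp) and the other 8 overlapped. The 5 lymphatic genes all overlapped, although their sums did not (20.3 to 27.8 and 27.9 to 31.3 CPM). In whole kidney, fewer cells of a type and less RNA per cell cannot be told apart, and the part of these levels in the lncRNA differences was not tested. Without WT_5 and cFGF23-Hyp_5, 6 lncRNAs (2.74%) passed in Hyp against WT beside 1.43% of all genes. With cFGF23-Hyp_3 left out too, 20 passed (9.13%, 8 higher and 12 lower) beside 9.43% of all genes. The treated libraries are not in this comparison, but all groups share the estimate of spread. Leaving out libraries picked for deviant values can lower that spread, so the added calls are no independent support.

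The comparison cFGF23-Hyp against Hyp sets AAV-cFGF23 against PBS in mice labelled Phex_KO. No group received a vector without cFGF23. Effects of the fragment and of the vector therefore cannot be told apart, here or in cFGF23-Hyp against WT. Here 0 of the 219 lncRNAs passed the test, beside 0% of all genes (edgeR). At an unadjusted p under 0.05 there were 22 (10%, against 10.4% of all genes), DESeq2 called 1, 9630013D21Rik (0.457%, beside 0.795% of all genes), and limma-voom 0 (beside 0.0127%). Every treated mouse was above every Hyp mouse for 2 lncRNAs, 9630013D21Rik and Gm15318, beside 0.874% of all genes, and none was below, beside 0.963%. Log2 fold changes were positive for 129 of 219 (58.9%), against 51.6% of all genes and 55.9% of protein-coding genes with the same CPM minimum. The median log2 fold change was 0.06 over the 219 and 0.01 over all genes. This median rested on cFGF23-Hyp_3, in which the 219 lay at a median of 0.23 (log2) above their average over the libraries: it was 0.02 without that library and -0.01 without WT_5, cFGF23-Hyp_5 and cFGF23-Hyp_3.

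The 4 largest positive differences were those of Gm4208, Gm20559, Gm17066 and Gm15848. Gm4208 had 0.99 ± 0.37 (adjusted p = 0.373, edgeR), and 0.53 ± 0.30 without cFGF23-Hyp_5. Gm15848 had 0.61 ± 0.23, and 0.30 ± 0.16 without the same mouse, in which it reached 42.4 CPM against 14 to 22.1 in the other treated mice. Gm17066, which lies within Rbm26 on the same strand, had 0.73 ± 0.29, with 23.9 CPM in cFGF23-Hyp_3 and 6.76 to 8.11 in the others. Rbm26 itself, an RNA-binding protein, had 0.09 ± 0.09.

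Gm20559 (chromosome 6, 3333191 to 3346128, minus strand) had 0.80 ± 0.26 against Hyp (adjusted p = 0.313, edgeR) and 0.83 ± 0.26 against WT (adjusted p = 0.704, edgeR). Treated mice 1 to 5 had 17.5, 15.4, 9.69, 7.19 and 5.41 CPM, against 4.78 to 7.35 in Hyp and 4.95 to 8.56 in WT. The same mice stood at 2.16, 1.89, 1.50, 0.37 and -0.83 on the interferon gene list. WT_5, the highest WT mouse for Gm20559 at 8.56 CPM, was also the highest there, at 1.20. Its neighbour Samd9l, an interferon-induced gene 26129 bases away, had 141, 120, 50.1, 66.1 and 109 CPM in the treated mice and 68.3 to 77.6 in Hyp (0.39 ± 0.21, adjusted p = 0.507, edgeR). Without WT_5 and cFGF23-Hyp_5 the log2 fold change of Gm20559 against WT was 1.15 ± 0.23 (adjusted p = 0.027, edgeR, with 0.013 to 1.000 over the alternatives). These libraries stood out on the interferon list and were the highest WT and the lowest treated mouse for Gm20559. Leaving them out therefore widens the difference by the choice itself, and this p is no independent support. The part of the interferon genes in the Gm20559 level was not tested.

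The largest negative differences in cFGF23-Hyp against Hyp were those of Meg3, described below, Gm47283, Gm10076 and ENSMUSG00000121096. Gm47283, on the Y chromosome, had 6.43 to 13.8 CPM in treated mice and 3.74 to 21.6 in Hyp, with Hyp_3 the lowest of all 15 (-0.87 ± 0.36, adjusted p = 0.423, edgeR). Gm10076 had -0.61 ± 0.29. ENSMUSG00000121096 had 4.64 to 6.57 CPM in treated mice and 5.89 to 9.22 in Hyp (-0.42 ± 0.17, adjusted p = 0.402, edgeR). It lies between the thyroid hormone receptor gene Thra, which it overlaps, and the clock gene Nr1d1, 186 bases away. Thra had a log2 fold change of -0.16 ± 0.11, and that of Nr1d1 was 0.14 ± 0.50. In the WT mice, which are outside this comparison, Nr1d1 had 52.2, 15.6, 59.7, 3.69 and 84.6 CPM. ENSMUSG00000121096 was lowest in WT_4 too, at 4.42 CPM.

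In cFGF23-Hyp against WT, 0 lncRNAs passed, beside 0% of all genes (edgeR); 16 (7.31%) had an unadjusted p under 0.05, against 5.73% of all genes, and DESeq2 and limma-voom called 0. No lncRNA lay without overlap above WT and 1 lay below, 2900076A07Rik, beside 0.247% and 0.241% of all genes. 2900076A07Rik reached the minimum only through WT, at 5.65 unscaled CPM there and 4.91 in the rest, so its place among the 219 rests on the group where it is high. Gm16010 had the largest positive value, 1.11 ± 0.28 (adjusted p = 0.668, edgeR), and Gm4208 the largest negative, -0.98 ± 0.35 (adjusted p = 0.759, edgeR). Without WT_5 and cFGF23-Hyp_5, 6 lncRNAs passed (2.74%, beside 1.11% of all genes). Gm4208 was lower, and Gm16010, Gm53, ENSMUSG00000120992, Gm10451 and Gm20559 were higher. These calls rest on leaving out libraries picked with their values known, so they are no independent support. ENSMUSG00000120992 starts 570 bases from Vars, a valyl-tRNA synthetase gene on the other strand. It had 5.61 to 11.5 CPM in WT and 7.96 to 15.2 in treated mice (0.53 ± 0.21, adjusted p = 0.839, edgeR), while Vars had -0.05 ± 0.07 and Lsm2, on its other side, 0.06 ± 0.14.

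C4a is listed as a lncRNA in the deposited tables, although its name is that of a complement component, and C4b is a close copy, so that reads may be split between them. It had 63.4 to 107 CPM in WT_1 to WT_4, 43.1 in WT_5, 41.7 to 88.2 in Hyp and 36.1 to 66.5 in treated mice. The log2 fold change in cFGF23-Hyp against WT was -0.61 ± 0.23 (adjusted p = 0.826, edgeR). Its neighbour Stk19 had -0.44 ± 0.20. On the other side lies Cyp21a1, an adrenal steroid enzyme, which was at 317 CPM in Hyp_4 and at most 0.776 elsewhere.

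Over all 3 comparisons, 18 lncRNAs were outlying by a call, a large fold change or a large spread, and their 24 protein-coding neighbours included 21 tested genes. None of the 21 passed the test in Hyp against WT, beside 0.342% of all genes (edgeR). None passed in cFGF23-Hyp against Hyp or in cFGF23-Hyp against WT either, beside 0% of all genes in each. An unadjusted p under 0.05 (edgeR) was reached by 4 of the 21 in Hyp against WT, beside 13.4% of all genes. In cFGF23-Hyp against Hyp 2 reached it, beside 10.4%, and in cFGF23-Hyp against WT 3, beside 5.73%. The smallest adjusted p, 0.051, was that of Slc22a12, the urate transporter of the proximal tubule beside Gm14964, which had 946 to 1350 CPM in WT and 734 to 978 in Hyp (-0.54 ± 0.11). Across the 74 head-to-head pairs, the lncRNA and its coding partner had a median within-group r of 0.12 over 15 libraries, and the log2 fold changes in Hyp against WT had the same sign in 43. For the 42 tested pairs that overlap on opposite strands the median r was 0.05, with single pairs from -0.88 to 0.98. Their log2 fold changes in Hyp against WT had the same sign in 29, with r = 0.41 across pairs, against 0.22 for the head-to-head pairs. For the 15 tested pairs that overlap on the same strand the median within-group r was 0.34. Their log2 fold changes had the same sign in 7, with r = 0.16 across pairs. Reads of overlapping genes cannot be told apart.

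Several lncRNAs differed more between mice of a group than between groups. The median SD within groups was 0.26 on the log2 scale over the 219, against 0.18 for protein-coding genes with the same CPM minimum, and 16 lncRNAs (7.31%) exceeded 0.5, against 3.31%. The sets differ in level, with a median of 9.72 CPM for the lncRNAs and 33.1 for the protein-coding genes, and the part of the level in this difference was not tested. Meg3 (ENSMUSG00000021268, chromosome 12, 109506879 to 109538165) had 63 CPM in Hyp_4, and 1.51 to 2.92 in the other Hyp mice, 0.934 to 2.19 in WT and 0.968 to 2.27 in treated mice. Its log2 fold change in Hyp against WT of 3.27 ± 0.93 (adjusted p = 0.136, edgeR) became 0.52 ± 0.30 without Hyp_4, and in cFGF23-Hyp against Hyp -3.38 ± 0.95 became -0.63 ± 0.30. Without Hyp_4 its mean was 1.6 unscaled CPM, below the minimum. Dlk1, the imprinted neighbour that starts 88130 bases before it, was at 18.6 CPM in Hyp_4 and at most 1.16 elsewhere, and Rian, a lncRNA of the same imprinted cluster, at 21.5 and at most 1.46.

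Hyp_4 also stood apart on 8 adrenal genes, which summed to 1450 CPM there, 13.6 in cFGF23-Hyp_2 and 3.79 to 5.18 in the other 13 libraries. Cyp11b1, Cyp11b2, Th and Dbh, defining genes of adrenal cortex and medulla, were at 186, 18.3, 20.4 and 14.9 CPM in Hyp_4. Th, Dbh and Cyp11b2 were at 0 in all other libraries, and Cyp11b1 in all but cFGF23-Hyp_2. Most like Meg3 over the 15 libraries were Akr1b7, Scarb1 and Star, with r of 0.97, 0.96 and 0.94, which rest on the same mouse. The part of adrenal RNA in the Meg3 level was not tested.

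ENSMUSG00000120079 (chromosome 12, 24731875 to 24750972) had the largest spread, with an SD within groups of 1.35 on the log2 scale. WT mice had 23.4, 4.09, 24.9, 2.82 and 28.3 CPM, Hyp mice 26.9, 6.27, 22.9, 22.6 and 24.3, and treated mice 25, 4.1, 31.1, 4.15 and 26.4. The 15 mice thus fell at 2 separate levels, 2.82 to 6.27 in 5 mice and 22.6 to 31.1 in 10, and each group held both. Cys1, a cilium protein gene whose mutation causes polycystic kidney in mice, starts 63 bases away on the other strand and ran from 25.9 to 43.1 CPM without such levels. The genes most like ENSMUSG00000120079 were Cpsf3, Sostdc1 and Iah1, with r of 0.95, 0.92 and 0.91. All 3 lie on chromosome 12 and start 3396, 11632 and 3365 kb away. Iah1, an esterase gene, had 45.2 to 57.9 CPM in the 5 low mice and 84.1 to 142 in the other 10.

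Gm14964 (chromosome 19, 6580741 to 6582041, minus strand) was also at 2 levels, with 12.2, 15.1, 2.88, 3.4 and 2.71 CPM in WT, 2.66, 2.43, 12.5, 2.49 and 6.65 in Hyp and 9.33, 6.26, 8.42, 2.76 and 2.09 in treated mice. The mice high for Gm14964 were only in part those high for ENSMUSG00000120079: WT_1, Hyp_3, Hyp_5, cFGF23-Hyp_1 and cFGF23-Hyp_3 were high for both, while WT_2 and cFGF23-Hyp_2 were high for Gm14964 and low for ENSMUSG00000120079. It lies within Nrxn2, a neurexin gene on the other strand, which had 31.7 to 74.7 CPM in the 7 mice high for Gm14964 and 5.84 to 13.1 in the other 8. Their deviations had r = 0.98, and their reads cannot be told apart. For Gm32461 (chromosome 16), no coding gene overlapped it or started within 100 kb. It had 14.5, 6.38, 12.4, 5.78 and 16.8 CPM in WT, 11.2, 6.22, 4.29, 15.6 and 14.8 in Hyp and 13.1, 11.9, 23.8, 4.35 and 17.2 in treated mice. It followed the pseudogene Gm5436 of chromosome 12 with r = 0.96. For each of these 3 lncRNAs the ranges of the 3 groups overlapped.

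**Figure D5:**
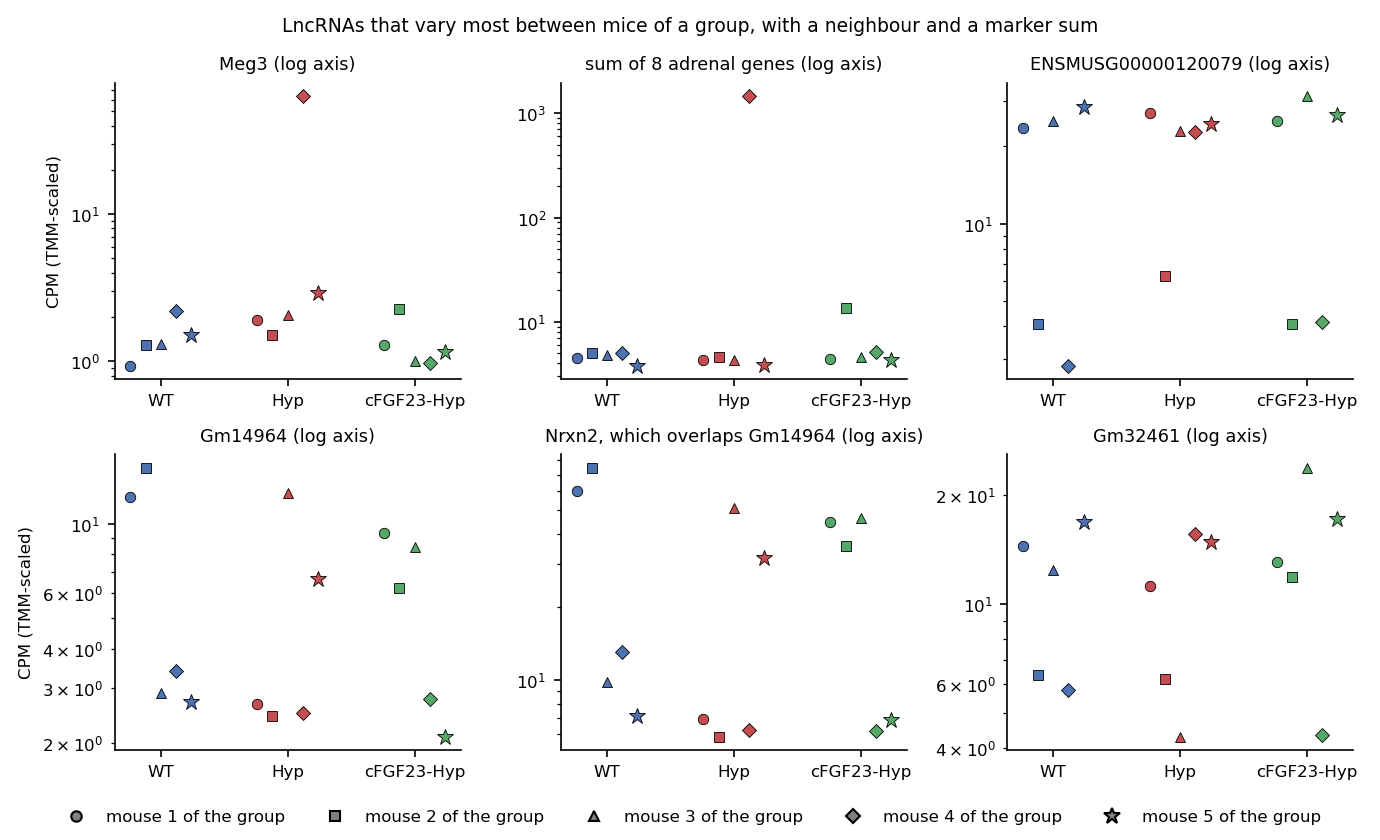
CPM on log axes in each mouse for Meg3, the sum of 8 adrenal genes, ENSMUSG00000120079, Gm14964, the gene Nrxn2 that overlaps it, and Gm32461. Meg3 and the adrenal sum are high in Hyp_4 alone, with 63 and 1450 CPM, and the other lncRNAs lie at separate levels within each group.

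Among lncRNAs of known kind, on lists that held at most 10 of the selected lncRNAs each, none passed the test in any of the 3 comparisons (edgeR). Of all genes tested, 0.342% passed in Hyp against WT, 0% in cFGF23-Hyp against Hyp and 0% in cFGF23-Hyp against WT. With so few calls over all genes, the lack of calls on lists this short does not set these lncRNAs apart. The 10 hosts of small nucleolar RNAs had a median log2 fold change of -0.01 in Hyp against WT, -0.04 in cFGF23-Hyp against Hyp and -0.02 in cFGF23-Hyp against WT. Snhg17 came closest, with 13.9 to 18.1 CPM in WT and 18.3 to 22.8 in Hyp (0.34 ± 0.10, adjusted p = 0.164, edgeR). Gas5, a host that also binds the glucocorticoid receptor, had 9.85 to 14.9 CPM in WT and 9.98 to 12.6 in Hyp. The 3 imprinted lncRNAs were Meg3, Peg13 and Snhg14; Peg13 had 0.18 ± 0.14 in Hyp against WT and Snhg14 0.14 ± 0.15. Firre, an X-linked lncRNA that organizes chromatin, had 56 to 90.6 CPM in WT and 78.1 to 88.9 in Hyp (0.34 ± 0.15, adjusted p = 0.345, edgeR), with WT_5 the highest WT mouse. Of the antisense partners of kidney transcription factors, Hnf4aos had 6.54 to 10.5 CPM in WT and 4.08 to 6.97 in Hyp (-0.60 ± 0.21, adjusted p = 0.238, edgeR), and Hnf1aos1 -0.20 ± 0.22.

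MicroRNA hairpins lay inside 11 of the 195 lncRNAs found by Ensembl ID in the GRCm38 annotation, on the same strand, 22 hairpins in all. The library measures the host transcripts, not the mature microRNAs. Mature sequences (RefSeq, GRCm38.p6) from 6 of the hosts are shown, each with its seed (bases 2 to 8) in capitals, to tell which seeds these hosts carry. The let-7 arms share 1 seed, as do both miR-29 arms and the miR-17 and miR-20a arms.
let-7a-5p, in 6720427I07Rik, chr13:48538239-48538260, minus strand: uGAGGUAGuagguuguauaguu
let-7d-5p, in 6720427I07Rik, chr13:48536078-48536099, minus strand: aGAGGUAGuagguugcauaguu
let-7f-5p, in 6720427I07Rik, chr13:48537889-48537910, minus strand: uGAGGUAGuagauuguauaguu
miR-29b-3p, in A330023F24Rik, chr1:195037091-195037113, plus strand: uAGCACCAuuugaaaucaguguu
miR-29c-3p, in A330023F24Rik, chr1:195037600-195037621, plus strand: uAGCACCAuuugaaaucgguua
miR-17-5p, in Mir17hg, chr14:115043684-115043706, plus strand: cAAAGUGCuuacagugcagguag
miR-20a-5p, in Mir17hg, chr14:115044183-115044205, plus strand: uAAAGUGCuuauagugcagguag
miR-16-5p, in Dleu2, chr14:61631936-61631957, minus strand: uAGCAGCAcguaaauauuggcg
miR-22-3p, in Mir22hg, chr11:75463772-75463793, plus strand: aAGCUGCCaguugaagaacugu
miR-100-5p, in Mir100hg, chr9:41531437-41531458, plus strand: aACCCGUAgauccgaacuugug
miR-125b-5p, in Mir100hg, chr9:41581940-41581961, plus strand: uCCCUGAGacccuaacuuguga
Mir22hg, the most abundant of these hosts, had 42.9 to 54.6 CPM in WT, 34.8 to 48 in Hyp and 42 to 56.4 in treated mice (Hyp against WT -0.17 ± 0.10, adjusted p = 0.509, edgeR). Dleu2, host of miR-16, had 16 to 23.5 CPM in WT and 15.4 to 22.5 in Hyp. Mir17hg had 3.38 to 5.59 and 4.59 to 6.43, and Mir100hg 11.2 to 15.9 and 12.4 to 18.4. A330023F24Rik, the miR-29 host, was at 9.81 to 20.2 CPM in 14 mice and at 3.2 in cFGF23-Hyp_3. E130102H24Rik, which holds miR-101a, was likewise lowest in that mouse, at 4.46 CPM against 8.52 to 12.5. The let-7 host 6720427I07Rik had 4.44 to 8.06 CPM in WT, 6.19 to 7.63 in Hyp and 5.74 to 9.08 in treated mice, and its groups overlapped.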

How the data were processed

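RNA from whole kidney was sequenced in 15 libraries, 5 per group. The authors deposited 2 tables with raw counts per gene, their normalized signal (the counts times 1 constant per library, from the values), log2 fold changes and p-values. Per the submitters' processing notes the genome build is mm10. Aligner, counter, annotation and strand setting were not given in the sources used here. Of 195 of the lncRNAs found by Ensembl ID in a GRCm38 annotation, 2 had the deposited start, so coordinates are given as deposited and sequences come from RefSeq GRCm38.p6 by symbol.

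The tables were joined on gene ID (27122 shared genes). The 299 rows without a name (0.219% to 0.363% of counts) and 20 FPKM columns were not used, and 678 lncRNAs present in only 1 table held at most 11 counts each. CPM are raw counts divided by the library's summed count, times 1e6, unscaled for selection and TMM-scaled elsewhere. Counts of all 3 groups were fitted together with edgeR 4.0.16 in R 4.3.3 (quasi-likelihood F test, filterByExpr, 15789 genes tested, Benjamini-Hochberg adjustment over all of them, threshold 0.05). SE is the log2 fold change divided by the root of F. Log2 CPM used a prior count of 2. DESeq2 1.42.0, limma-voom (limma 3.58.1), other filters, other scaling, left-out libraries and other CPM minimums were alternatives. The fit was tested on simulated data.

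Named lncRNAs were those called, the 4 largest changes each way per comparison, the 8 highest by CPM and by CPM per kb, the 5 largest spreads, known lists, the neighbours of the outlying ones and 3 on each side of the minimum. Rule, lists and tests were chosen with earlier results of these data known. The deviations of same-numbered libraries from their group means had r of -0.173 to 0.181 in 15 pairs, 4 of them over 0.1. Mice were therefore treated as unpaired, but such low r cannot exclude that the numbers pair mice. No 2 libraries of a group agreed within sampling noise (lowest chi-square per degree of freedom 8.23).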

Additional observations from a re-analysis of the deposited data

Results flagged for a closer look

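In 10 of 84 sets of 5 mice (28 named lncRNAs in 3 groups), 1 mouse stood apart from the other 4 by Dixon's criterion. Chance flags about 1 in 20 sets, but these lncRNAs were partly chosen for a large spread or fold change, so the number of flags cannot be read against that rate. Meg3 was at 63.0 CPM in Hyp_4 against 1.51 to 2.92 in the other Hyp mice, and at 2.27 CPM in cFGF23-Hyp_2 against 0.968 to 1.29. These are the same libraries in which the adrenal genes summed to 1450 and 13.6 CPM. ENSMUSG00000120079 was at 6.27 CPM in Hyp_2 against 22.6 to 26.9.

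In WT_5, Gm53 was at 34.4 CPM against 19.4 to 22.8 in the other WT mice, and Gm12121 at 26.0 against 16.9 to 19.5. Gm15848 was at 42.4 CPM in cFGF23-Hyp_5 against 14.0 to 22.1. In cFGF23-Hyp_3, Gm17066 was at 23.9 CPM against 6.76 to 8.11 and 0610005C13Rik at 201 against 122 to 141. D630029K05Rik was at 183 CPM in Hyp_2 against 146 to 153, and Norad at 107 CPM in Hyp_3 against 112 to 114.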

How the results depend on the processing

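The number of lncRNAs that passed moved with the processing. Over 30 fold changes of named lncRNAs under 25 alternatives each, 690 of 750 values kept direction and side of the threshold, 21 lost the call, 32 gained one and 7 changed sign. All 7 were uncalled, in Hyp against WT, and smaller than their SE: Gm47283 went from 0.08 to -0.11 with limma-voom and ran from -0.06 to 0.33 with each library left out in turn, Gm17066 from -0.12 to 0.02 around -0.08, and Gm20559 from -0.04 to 0.18 around 0.04. In Hyp against WT, 0 rose, against 3 with DESeq2, 1 with limma-voom, 1 with no filter, 3 with only the 2 groups in the fit, 3 with WT_5 placed in Hyp, 3 without WT_5 and cFGF23-Hyp_5, 8 without these and cFGF23-Hyp_3, and 0 to 3 with each library left out in turn. There 2 fell, against 4 with DESeq2, 8 with only the 2 groups, 1 with WT_5 placed in Hyp, 12 without the 3 libraries, 1 at a minimum of 10 CPM and 0 to 7 with each library left out. The 0 came from removing a Hyp mouse or a WT mouse other than WT_5, and the 7 from removing cFGF23-Hyp_3. The share of all genes called in Hyp against WT moved too. It was 0.342% in the main fit, 2.27% with DESeq2, 3.33% with only the 2 groups and 9.43% without the 3 libraries. For the 219 these shares were 0.913%, 3.2%, 5.02% and 9.13%. With limma-voom 0.481% of all genes and 1.37% of the 219 were called, and with no filter 0.183% and 1.37%. With WT_5 placed in Hyp the shares were 0.605% and 1.83%, and without WT_5 and cFGF23-Hyp_5 1.43% and 2.74%. With each library left out in turn, 0.0438% to 2.16% of all genes were called, with 2.16% (4.11% of the 219) without cFGF23-Hyp_3. With the replicate block 0 rose and 0 fell in any comparison, beside 0.095% of all genes called in Hyp against WT. Whether the numbers pair mice is not known. In cFGF23-Hyp against Hyp, DESeq2 gave 1 that rose, against 0, and called 0.795% of all genes. In cFGF23-Hyp against WT, 5 rose and 1 fell without WT_5 and cFGF23-Hyp_5, and 8 and 3 without the 3 libraries, against 0 and 0. In these fits 1.11% and 3.6% of all genes passed, beside 2.74% and 5.02% of the 219. The cause was not tested. In the authors' deposited table, 17 of the 219 had an adjusted p under 0.05 in Hyp against WT, 4 higher and 13 lower (7.76%, beside 8.35% of the 15789 genes). The median lncRNA had 2360 counts over all libraries, and the median SE was 0.17 on the log2 scale.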
